A study of Homo sapiens with 8 samples.

Results

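CABLES1 and CABLES2 encode a pair of related adaptor proteins, and their transcripts were examined here for binding by the splicing regulator RBFOX2 in HEK293T cells, a human embryonic kidney line. RBFOX2 was measured by eCLIP, in which ultraviolet light crosslinks a protein to the RNA it touches and the RNA that is immunoprecipitated (IP) with the protein is sequenced. The series holds 4 RBFOX2 IP libraries and 4 input libraries, each from cells crosslinked with 400 mJ per square centimetre at 254 nm, with 2% of each sample set aside as the input of the same number. All cells shared one line and one IP target, with no IP of another protein or knockout in the design, and the labels do not say whether the replicates were separate cultures. The deposited lists, 1 per IP library, hold 1118316 called peaks in all, each with the authors' log2 fold of IP over input and −log10 p. The genes were chosen by these same folds, since CABLES1 was picked with its enrichment known and CABLES2 joined as its paralog, so all folds below are descriptions without a test. Members were the peaks on the gene's strand with their midpoint in the gene's RefSeq span on GRCh38, which gave 332 peaks in CABLES1 and 81 in CABLES2, or 413 of the 1118316.

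CABLES1 (CDK5 and ABL enzyme substrate 1) binds cyclin-dependent kinases through a cyclin-like domain and brings them together with tyrosine kinases such as ABL1 and WEE1, which phosphorylate them. CABLES2 shares that domain. RBFOX proteins recognise the RNA element GCAUG, often in introns near regulated exons, where their position helps decide whether the exon is kept. Without a genome sequence or an exon annotation among the sources used here, the sequence under the peaks and their exon or intron position are not given.

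The CABLES1 span lies on chromosome 18 from 23134564 to 23260470, plus strand, and is 125.9 kb long. The CABLES2 span lies on chromosome 20 from 62388634 to 62407285, minus strand, and is 18.7 kb long. RefSeq places 3 transcription starts in CABLES1, at 23134564, 23135485 and 23155825, and 1 in CABLES2, at 62407285. None of the 4 windows from 250 nt before to 50 nt after these starts was overlapped by a called peak on the gene strand (0 peaks in each).

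CABLES1 carried a compact block of strongly enriched peaks, and CABLES2 carried almost none. A peak counted as enriched when both its log2 fold and its −log10 p reached 3, so that IP was 8-fold over input or more. By that count, CABLES1 had 16, 17, 19 and 19 enriched peaks among 78, 77, 88 and 89 called peaks in replicates 1 to 4, and CABLES2 had 0, 1, 0 and 0 among 20, 19, 22 and 20. As a share of called peaks, this was 20.5%, 22.1%, 21.6% and 21.3% in CABLES1 and 0%, 5.26%, 0% and 0% in CABLES2. Over all called peaks of the same libraries the share was 0.861%, 0.848%, 0.789% and 0.775%. The mean share of CABLES2 was 1.32% ± 2.63, against 0.82% ± 0.04 over all called peaks (SD, n = 4 for both). With 1 enriched peak, CABLES2 is not set apart from the other peaks by its enriched share, which says nothing of its smaller folds. CABLES1 was picked for its enrichment, so its difference from CABLES2 is a description only. The CABLES1 mean was 17.75 ± 1.5 enriched peaks (SD, n = 4) and the CABLES2 mean 0.25 ± 0.50 (SD, n = 4).

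**Figure D1:**
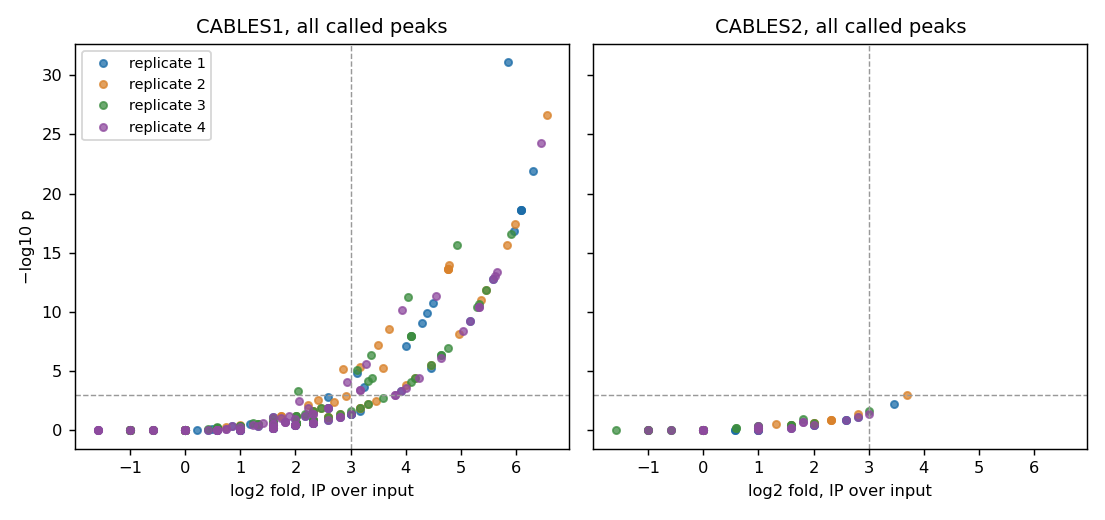
Authors' log2 fold of IP over input (horizontal axis) against their −log10 p (vertical axis) for every called peak of CABLES1 (left) and CABLES2 (right), 1 point per peak, coloured by replicate, with dashed lines at 3 on both axes. CABLES1 peaks reach log2 folds of 5.91 to 6.56 per library, while a single CABLES2 peak, of replicate 2, lies past both lines.

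The enrichment in CABLES1 was concentrated in a short stretch of the gene. The stretch from the first to the last region enriched in at least 2 libraries ran from 23217817 to 23220977, which is 3161 nt or 2.51% of the span. It held 88 of the 332 called peaks (26.5%) and 69 of the 71 enriched ones (97.2%). It began 83.3 kb after the first base of the gene and 62.0 kb after the last annotated start, ended 39.5 kb before the end of the span, and lay inside no other annotated gene. Since its limits were set by the folds, its difference from the rest of the gene is a description only.

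Within that stretch all called peaks, 19 to 24 per library, had a log2 fold above 1.5. The lowest was 2.58, 2.22, 2.05 and 1.58 and the median 4.46, 4.32, 4.09 and 3.97 in replicates 1 to 4, so the lower bound differed between libraries more than the median did. The mean of the medians was 4.21 ± 0.22 (SD, n = 4). In the 103 CABLES1 peaks before the stretch it was 0.81 ± 0.17, and in the 141 peaks after it 1.19 ± 0.17 (SD, n = 4 for both). The enriched peaks outside the stretch were both in replicate 4, one from 23216781 to 23216938 with a log2 fold of 3.81 and one from 23232549 to 23232653 with 3.91.

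**Figure D2:**
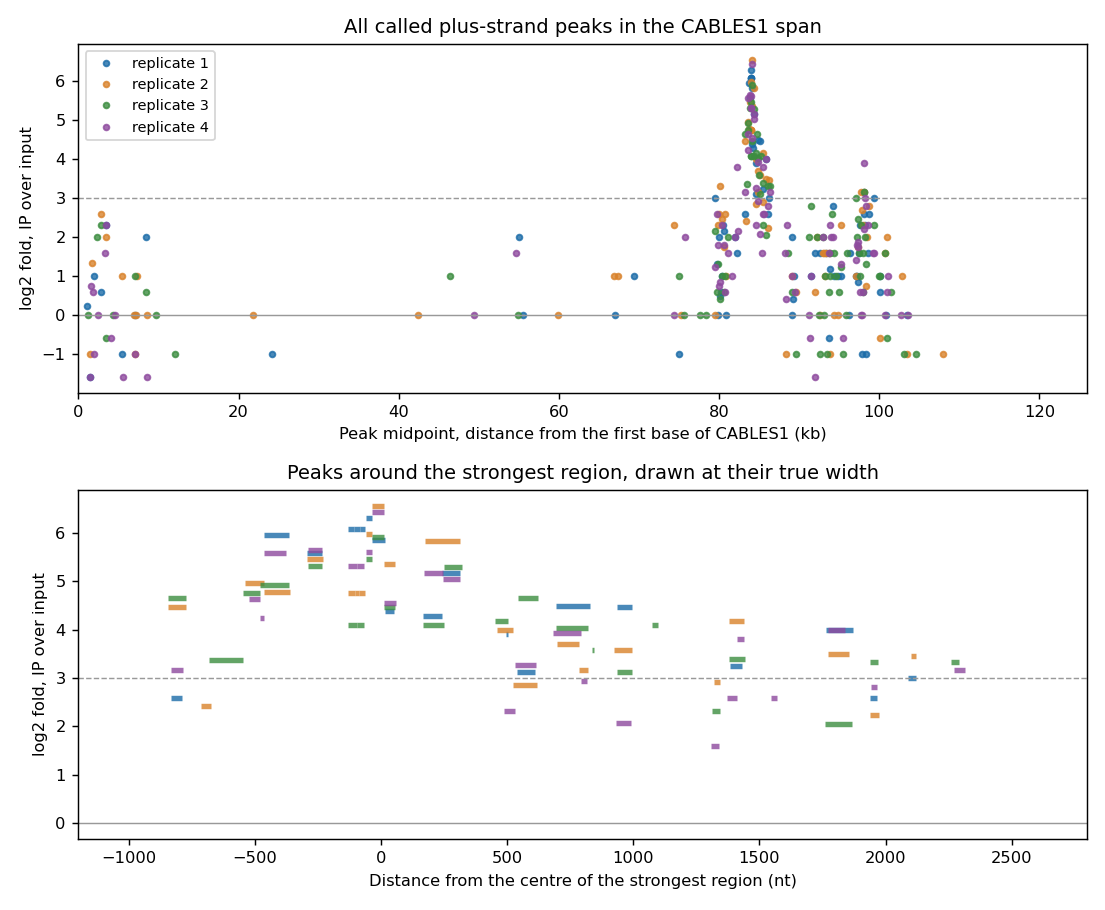
Log2 fold of IP over input for the called plus-strand peaks of CABLES1, by distance of the peak midpoint from the first base of the gene in kb (top) and, for peaks near the strongest region drawn as bars of their own width, by distance in nt from the centre of that region (bottom), with replicates in 4 colours. Dashed lines mark a log2 fold of 3. Folds above 4 sit in a narrow block near 84 kb in all 4 libraries.

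Called peaks fell in separate parts of the gene. The first 10 kb held 38 peaks over the 4 libraries, with library medians between −0.29 and 0.50, and no enriched peak. From 10 to 70 kb each 10 kb bin held between 0 and 5 peaks. The bin from 80 to 90 kb, which contains the block, held 130 peaks and 70 of the enriched ones, and the next bin held 105 peaks with library medians between 1.58 and 1.59. No peak was called in the last 17.9 kb of the span. That end overlaps the span of SLC35D4, where 2 of the 332 peaks had their midpoint.

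To follow single sites across libraries, called peaks of the 4 libraries were merged into regions wherever they shared 1 nt or more and the strand. CABLES1 had 138 regions, of which 29 held a called peak in every library and 8 held an enriched peak in every library, or 27.6% of the 29. Across the genome, 49493 regions were called in every library, and 559 of them (1.13%) were enriched in all 4. CABLES1 thus held 1.43% of them. A further 3 CABLES1 regions were enriched in 3 libraries, 1 in 2 and 4 in 1. The 8 regions spanned 1991 nt, from 23218114 to 23220104, with gaps of 4 to 544 nt (median 100 nt) between neighbours, and were 63 to 188 nt long.

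Each region was given 1 log2 fold per library, that of the peak with the best p. The strongest region ran from 23218602 to 23218721, with log2 folds of 5.84, 6.56, 5.91 and 6.44 in replicates 1 to 4 and −log10 p of 31.1, 26.6, 16.6 and 24.2. Its mean log2 fold was 6.19 ± 0.36 (SD, n = 4), a geometric mean of 72.9-fold over input. Log2 folds of called CABLES1 peaks repeat a few values within a library, such as 1.00, 1.58 and 2.00 in replicate 1. Whether few input reads lay under the strongest region was not tested. The size of the 72.9-fold thus rests on an input count that is not known. The leading peak of this region had nearly the same edges in each library, starting at 23218625 or 23218626 and ending at 23218674 or 23218675.

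On its 5′ side lay 3 further regions enriched in every library. The first, from 23218114 to 23218301, had log2 folds of 5.95, 4.78, 4.93 and 5.58 (mean 5.31 ± 0.55, SD, n = 4). The second, from 23218367 to 23218429, had 5.58, 5.46, 5.32 and 5.64 (mean 5.50 ± 0.14), the narrowest spread of the 8, and the starts of its peaks lay within 5 nt and their ends within 3 nt. The last, from 23218530 to 23218597, had 6.09, 4.76, 4.09 and 5.32 (mean 5.06 ± 0.85), the widest spread of the 8, with replicate 1 high and replicate 3 low. This last region was divided by the authors' lists into 3 adjoining peaks in replicates 1 and 2 and into 2 in replicates 3 and 4, all with the same fold and p within a library, so its pieces are not separate measurements. Over CABLES1, 6 of 34 adjoining pairs of peaks had identical values in this way (to within 1e-09), and counts of enriched peaks therefore count pieces.

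On the 3′ side, the region from 23218828 to 23218982 had log2 folds of 5.17, 5.83, 5.29 and 5.17 (mean 5.36 ± 0.32, SD, n = 4). Beyond it the folds were smaller. The region from 23219115 to 23219282 had 3.11, 2.86, 4.64 and 3.27 (mean 3.47 ± 0.80), where replicate 3 was high and replicate 2 counted as enriched through a neighbouring peak of 4.00. The region from 23219344 to 23219490 had 4.49, 3.70, 4.03 and 3.94 (mean 4.04 ± 0.33), and the region from 23220035 to 23220104 had 3.25, 4.17, 3.39 and 3.81 (mean 3.65 ± 0.42).

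In the order of their means, the strongest region was above the second (5.32 to 5.64) in every library. It was also above the region on its 3′ side (5.17 to 5.83) in every library. Its range overlapped neither, but its lowest fold of 5.84 was close to that 5.83. The strongest region was chosen by its lowest fold, so this order follows in part from the choice. As the length-weighted mean of all its peaks it had 5.57, a measure not given for its neighbours. The range of the strongest region overlapped those of the first and the last region on the 5′ side. Those 4 neighbours of the strongest region had means between 5.06 and 5.50 and overlapping ranges, and are not ordered by these data. The 3 regions farthest in the 3′ direction, with means of 3.47, 3.65 and 4.04, also overlapped one another. Over the 8 regions the median SD between libraries was 0.39, and over all 559 regions enriched in every library it was 0.58.

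**Figure D3:**
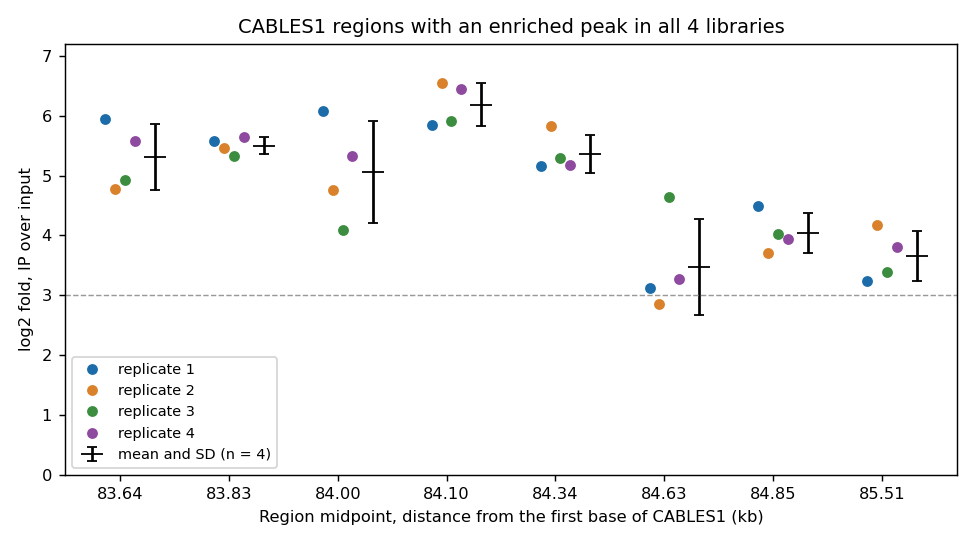
Log2 fold of IP over input in each of the 4 libraries (points) with the mean and SD (black, n = 4) for the 8 CABLES1 regions with an enriched peak in all 4 libraries, ordered by the distance of the region midpoint from the first base of the gene in kb. Means lie between 5.06 and 6.19 in the 5 regions nearest the gene start and between 3.47 and 4.04 in the other 3.

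The 3 regions enriched in all but 1 library missed the count in a different library each. The region from 23217817 to 23217887, the 5′ edge of the block, had log2 folds of 2.58, 4.46, 4.64 and 3.17 and missed in replicate 1. The region from 23219584 to 23219657 had 4.46, 3.59, 3.12 and 2.07 and missed in replicate 4. The region from 23220420 to 23220531 had 4.00, 3.50, 2.05 and 4.00 and missed in replicate 3. The region at the 3′ edge, from 23220923 to 23220977, had a called peak only in replicates 3 and 4, at 3.32 and 3.17. Around the limit on p, the CABLES1 peaks just inside had a −log10 p of 3.01 and the nearest outside with a sufficient fold one of 2.74.

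Outside the block, CABLES1 folds were mostly positive but small. Of the called peaks outside it, 68.4% ± 1.0 had a log2 fold above 0.5 and 13.1% ± 0.96 one below −0.5, where 31.4% ± 1.35 and 23.6% ± 0.49 of all called peaks did (SD, n = 4 for each). Many called peaks had a −log10 p of 0, so such folds are weakly supported. This held for 27.7% ± 6.1 of all CABLES1 peaks, 48.0% ± 9.69 of CABLES2 peaks and 74.1% ± 8.03 of all called peaks (SD, n = 4 for each). Within the block the lowest −log10 p was 1.11, so all such CABLES1 peaks lay outside it. Their share outside the block was thus higher than over the whole gene. The widest of the other regions, from 23231776 to 23232058, had 0.85, 1.74, 2.46 and 1.87, and the region from 23232549 to 23232749 had 2.58, 3.17, 3.17 and 3.91 (mean 3.21 ± 0.54, SD, n = 4), with a −log10 p above 3 in replicate 4 only. On the opposite strand of CABLES1, 2, 5, 4 and 4 peaks were called in replicates 1 to 4, with a log2 fold of at most 1.00 and none enriched (0 in each library).

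CABLES2 had more called peaks per length than CABLES1, 10.9 ± 0.67 per 10 kb against 6.59 ± 0.51 (SD, n = 4 for both). The highest and the median log2 fold of its called peaks were lower in every library. Its highest log2 fold was 3.46, 3.70, 3.0 and 3.0 in replicates 1 to 4, and that of CABLES1 was 6.30, 6.56, 5.91 and 6.44. The median over called peaks was 1.00, 1.32, 0.29 and 1.00 in CABLES2 and 1.58, 2.00, 1.59 and 1.74 in CABLES1. Of the CABLES2 peaks, 59.5% ± 6.69 had a log2 fold above 0.5. That share was 76.8% ± 0.84 over all CABLES1 peaks, 68.4% ± 1.0 outside the block and 31.4% ± 1.35 over all called peaks (SD, n = 4 for each). No CABLES2 peak was called on the opposite strand (0 in each library).

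Of 47 CABLES2 regions, 4 held a called peak in every library and 0 were enriched in all 4. The median of the mean log2 folds of these 4 regions was 2.20. It was 1.70 over the 29 such CABLES1 regions and 0.50 over all 49493. The strongest of the 4 CABLES2 regions, by the lowest of its 4 folds, ran from 62401478 to 62401695. It had log2 folds of 2.58, 2.32, 1.81 and 2.58 (mean 2.33 ± 0.37, SD, n = 4) and a −log10 p between 0.90 and 0.96. The region from 62401837 to 62401988 had 1.00, 3.70, 3.0 and 3.0 (mean 2.68 ± 1.17), with replicate 1 low, and held the only enriched peak of the gene, in replicate 2 at a −log10 p of 3.01. The other pair of regions, from 62402562 to 62402738 and from 62402968 to 62403064, had means of 1.26 ± 1.43 and 2.07 ± 1.26 and wider spreads between libraries. All 4 lay between 4.27 and 5.70 kb from the start of the gene. The non-coding gene LOC105372709 lies on the same strand inside CABLES2, from 62402232 to 62406894, and held 43 of the 81 peaks, among them the last pair of regions but not the first, and reads of the overlapping genes cannot be told apart there.

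Set beside other genes, CABLES1 was among the genes with the most regions enriched in every library. CABLES1 was picked for these folds, so its rank is a description only. The counts do not take gene length or the number of called peaks into account. Of 10099 genes with known strand and a called peak in every library, 240 (2.38%) held at least 1 such region. DGCR8 held 13, JAG2 10, GSE1 9 and SMPD4 9, and COQ8A and PTPRF held 8 as CABLES1 did. By the mean number of enriched peaks per library, 14 genes were above CABLES1. Among regions enriched in every library, 5 of the 559 had a higher lowest-of-4 fold than the strongest CABLES1 region.

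The genes whose strongest region was most like that of CABLES1 were sought among 8620 genes by the Euclidean distance between their log2 folds in the 4 libraries, using regions in a single gene span. HPCAL1 was nearest, at a distance of 0.58, with log2 folds of 5.71, 6.27, 5.70 and 6.0 (chromosome 2, 10335896 to 10336297). NXN followed at 0.78, with 6.60, 6.36, 5.83 and 6.39, and TBCD at 0.87, with 6.37, 6.25, 5.88 and 7.05. FAM120B and TRIM74 were at 1.06 and 1.07. The search also took genes without a known strand, FAM120B among them, so its region is not known to lie on the gene strand. The regions of the other named genes did. By the lowest of the 4 folds, 3 of these 8620 genes were above CABLES1, and by the mean of the 4 folds of the same regions 7 were.

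CABLES partners and genes related to those partners were compared as a list of 22 genes. The list includes activators and binding proteins of CDK5, so not every member is a known partner of a CABLES protein. Of the 22, 19 had a strand in the tables and 16 a called peak on that strand in every library. Of the 16, 1 held a region enriched in all 4 libraries, TP73 (6.25%, against 2.38% over all such genes). Over the 14 genes with a region called in every library, the median of the strongest region's mean log2 fold was 1.85, and over all 7664 genes with such a region it was 0.94. These genes differ in length and in the number of regions, which the medians do not take into account. TP73, a relative of p53 that binds CABLES1, had 3, 2, 3 and 2 enriched peaks among 64, 65, 76 and 68 called. Its region on chromosome 1 from 3722708 to 3723180 had log2 folds of 5.17, 5.21, 4.81 and 5.58 (mean 5.19 ± 0.32, SD, n = 4) with a −log10 p of 7.24 to 12.8.

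Among the kinases that CABLES1 joins, CDK5 had 7, 5, 2 and 5 called peaks and no enriched one (0 in each library), and its region called in every library had 1.00, 0.00, −1.0 and −1.59. ABL1 had 62 to 79 called peaks per library and ABL2 68 to 88, with 0 enriched in each library, and the strongest regions had means of 0.90 ± 0.66 and 1.74 ± 1.33 (SD, n = 4 for both). CDK5RAP2, a centrosomal protein that binds the CDK5 activator, had 0, 1, 1 and 1 enriched peaks among 93, 106, 122 and 115 called. Over all called peaks the enriched share was 0.861%, 0.848%, 0.789% and 0.775%. The strongest CDK5RAP2 region had 3.0, 4.00, 2.91 and 3.46 and held an enriched peak in 1 library only. CDK16 had 1 enriched peak, in replicate 4, with 36, 32, 33 and 30 called. That peak lay outside the strongest CDK16 region, which had 2.46, 2.74, 2.5 and 2.32. CDK18, a relative of CDK16, had 0 enriched peaks in each library and a strongest region of 3.58, 1.00, 3.0 and 3.17, with replicate 2 low. ROBO1, an axon guidance receptor, had 324 to 352 called peaks and 0 enriched in each library, although its strongest region had log2 folds of 2.91, 3.17, 3.59 and 3.0 (mean 3.17 ± 0.30, SD, n = 4) with a −log10 p of 1.41 to 2.74. CDH2, the cell adhesion molecule N-cadherin, had a strongest region of 2.81, 3.32, 2.0 and 2.0 with 0 enriched peaks in each library, and CTNNB1, the adhesion and WNT signalling protein β-catenin, had a strongest region of 0.74, 0.26, 0.42 and 0.58.

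**Figure D4:**
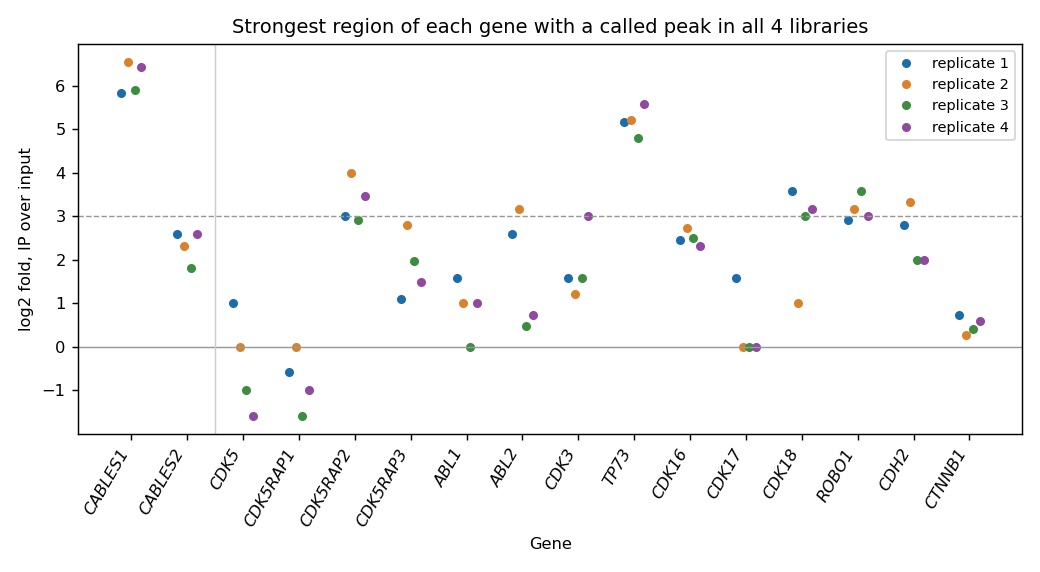
Log2 fold of IP over input in each of the 4 libraries (points) for the strongest region called in every library, in CABLES1, CABLES2 and the 14 genes of the list of partners and related genes that have one. The dashed line marks a log2 fold of 3. CABLES1 (5.84 to 6.56) and TP73 (4.81 to 5.58) lie above it in all 4 libraries.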

How the data were processed

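Per the submitters' processing notes, the data were handled with UMI-tools 1.1.1, cutadapt 3.2 and STAR 2.7.7a on hg38 (GRCh38). The peak caller, the test behind the p-values, their adjustment and the scaling of IP to input are not given in the sources used here. The authors set each IP library against its own input and deposited, in a headerless list for each, a −log10 p and a log2 fold of IP over input for every peak, as read from the ranges of those columns. Read counts behind the peaks were not used here, so depth is unknown and folds carry no counting interval.

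Peaks were taken by midpoint and strand against RefSeq gene spans (GRCh38.p14), with the strand from the RefSeq promoter table. Merging was tested on simulated sites set far apart, with no adjoining peaks. That test does not cover close or adjoining peaks such as those of the CABLES1 block. With gaps of up to 50 nt merged, the 8 CABLES1 regions enriched in every library became 7. Coordinates are 1-based. The "strongest" region of a gene is the one whose lowest log2 fold of the 4 libraries is highest. Named genes were the pair, members of the list of partners and related genes with an enriched peak in at least 2 libraries, and the 5 genes nearest to CABLES1. Other members of that list and the genes richest in regions were added after their values were seen. The members and lists were chosen with earlier results of these data known. Python 3.11.15, numpy 2.4.6 and pandas 2.3.3 were used.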

Additional observations from a re-analysis of the deposited data

Results flagged for a closer look

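In 3 counts 1 library stood apart from the other 3. CABLES2 had 1 enriched peak in replicate 2 and 0 in each of the others. CABLES1 had 1 enriched peak before the block of strong peaks and 1 after it, both in replicate 4, with 0 in each of the others. Of 33 sets of 4 values examined, these 3 differed in this way, and chance gives about 1 in 20 for continuous values, which counts of 0 and 1 are not.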

How the results depend on the processing

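Of 45 alternative values for the counts and folds of both genes, 40 stayed within 1.5 times the reported count or within 1 SD of the reported fold. Among the 40 were 10 counts of CABLES2 regions enriched in every library, each 0. A stricter limit on p or leaving out 1 replicate could not have raised those counts, so they do not speak for stability. The enriched peaks of CABLES1 lay between 13.75 and 20.0 per library over 9 alternatives, and its regions enriched in every library between 6 and 10 over 10 alternatives. CABLES2 had 0 such regions in all 10. Its mean of 0.25 enriched peaks per library became 0 with a −log10 p of at least 5, 0 with a limit of 3.1 in replicates 2 and 3 (an alternative chosen after seeing the data), 0.75 with no limit on p, and between 0 and 0.33 when 1 replicate was left out, with 0 without replicate 2. The fold of the strongest CABLES1 region, taken from its leading peak, was 6.19. As the length-weighted mean of all its peaks, which adds the pieces on either side, it became 5.57. Those pieces had 6.30, 5.98, 5.46 and 5.61 on the 5′ side and 4.39, 5.36, 4.46 and 4.55 on the 3′ side in replicates 1 to 4. With 1 replicate left out, the fold of the leading peak lay between 6.06 and 6.30.

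No paired analysis was possible because the lists hold only folds already taken within each pair of IP and input, so there is no unpaired fit to set beside them. Without read counts, the precision of a single fold is unknown, which matters most for peaks close to the limit on p.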
